A study of Rattus norvegicus and Mus musculus with 22 samples.

Results

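The BET inhibitor JQ1 was added to forskolin-treated INS-1 cells, an insulin-producing line from a rat insulinoma, and the transcripts were read by RNA sequencing. The cells with JQ1 received 1 µM of the compound for 4 h and 10 µM forskolin for 2 h. They were set against cells that received only 10 µM forskolin for 2 h and against control cells with neither agent. A further library from the same experiment came from cells given the p300/CBP inhibitor A-485 at 10 µM for 4 h together with 10 µM forskolin for 2 h. Each of these groups was 1 library, called here the JQ1, A-485, forskolin and control library, and all came from the same line. The member genes were those with at least 10 FPKM (fragments per kilobase of transcript, scaled to library depth) in the higher of the JQ1 and forskolin libraries, and 6764 of 17032 genes in the table met this. A gene was called lowered or raised when its level with JQ1 was at least 2-fold below or above the forskolin library, after adding 1 FPKM to both, and kept otherwise. The whole series holds 22 libraries from mouse islets, mouse hepatocytes, INS-1 cells and AR42J cells.

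BET proteins bind acetylated lysines on histones through their bromodomains and bring the elongation kinase P-TEFb to promoters and enhancers. JQ1 occupies the bromodomain pocket and releases these proteins from chromatin. HEXIM1, which holds P-TEFb in an inactive complex, is a transcript known to be raised by BET inhibitors in many cell types, and MYC is one known to be lowered in several blood cancers. Forskolin activates adenylyl cyclase, and the cAMP it raises activates protein kinase A, which phosphorylates the transcription factor CREB. CREB binds the cAMP response element, TGACGTCA or its shorter core TGACG, and recruits CRTC coactivators and the acetyltransferases CBP and p300, whose marks BET proteins read. In beta cells this pathway carries the signal of incretin hormones.

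No test of the JQ1 effect was possible with 1 library a group, so every ratio describes these libraries, and the 95% intervals given with ratios cover counting error only. The estimated depth was 3.86 M reads in the JQ1 library, 5.53 M in the A-485 library, 4.01 M in the forskolin library and 4.05 M in the control library. All 8 beta cell markers found in the table, Ins1 and Pdx1 among them, were above 1 FPKM in the JQ1, forskolin and control libraries. Of 9 stromal, endothelial and blood markers none reached 1 FPKM in any of those libraries and 6 were at 0. Likewise 7 of 10 acinar and duct markers and 4 of 9 hepatocyte markers were at 0. Others of these lists were present. In the JQ1, forskolin and control libraries Ctrb1 had 8.51, 12.4 and 8.17 FPKM. The hepatocyte markers Ass1 and Serpina1 had 34.2, 34.6 and 19.4 FPKM and 16.1, 16.4 and 14.8 FPKM. Of 8 markers of other islet cells 6 were at 0, Sst and Ppy among them, and the list's summed level was 594 FPKM with JQ1, 272 FPKM with forskolin and 75.5 FPKM in control, nearly all of it Gcg. A separate INS-1 experiment had 2 control and 2 forskolin libraries, whose spread is known only on a different scale from the FPKM ratios. On its regularised log2 values, 6 of 6445 members (0.0931%) differed at least 2-fold between the control libraries and 8 (0.124%) between the forskolin libraries. On that scale low genes appear closer together than they are, and the change of an abundant gene can be smaller too. Mest, at 1191 FPKM with forskolin, had a forskolin minus control difference of 2.74 in replicate 1. Its log2 ratio of forskolin over control in the inhibitor experiment was 4.86. The counts of 6 and 8 therefore do not measure the noise of the JQ1 ratios. Replicate 1 of the separate experiment moved with the inhibitor experiment's own control and forskolin libraries. Over 185 genes of at least 400 FPKM, its forskolin minus control difference had a correlation of 0.80 across genes with the inhibitor experiment's forskolin over control ratio, while that of replicate 2 had 0.14. Over 2023 genes of at least 50 FPKM these correlations were 0.89 for replicate 1 and 0.58 for replicate 2. Replicate 1 may therefore be the same cells or libraries, so gene sets chosen with it are given beside sets chosen on replicate 2 alone and on mouse islets.

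With JQ1, 436 genes (6.45% of members) were lowered, 5740 (84.9%) were kept and 588 (8.69%) were raised. The median log2 ratio of all members was -0.02, and 63 lowered and 110 raised genes had moved at least 4-fold. The lowered genes had a median of 9.96 FPKM in the JQ1 library, against 27.4 FPKM in the forskolin library and 24.9 FPKM in control. The raised genes had a median of 36.3 FPKM with JQ1, against 11.7 FPKM with forskolin and 12.6 FPKM in control. Kept genes had medians of 35.2, 36.5 and 34.7 FPKM in the JQ1, forskolin and control libraries. The class rule itself sets the JQ1 and forskolin medians of the changed classes apart. Among the lowered genes, 219 were members only through the forskolin library, so they could not have been raised. Among the raised genes, 258 were members only through the JQ1 library, so they could not have been lowered. The control library, which the rule did not use, lay near the forskolin library in both medians. The class limits passed through a dense range. Rad18, at 19.8 FPKM with JQ1 and 40.7 FPKM with forskolin, was just inside the lowered class, and Dedd, at 9.54 and 20.1 FPKM, just outside it. At the upper limit Ptbp1 was just inside, with 505 FPKM with JQ1 and 252 FPKM with forskolin, and Mtss1 just outside, with 17.6 and 8.30 FPKM. Requiring 20 FPKM in place of 10 left 278 lowered genes, and without any minimum 757 were lowered. When the columns were rescaled to the same sum, 528 were lowered and 500 raised, so that the larger class changed.

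**Figure D1:**
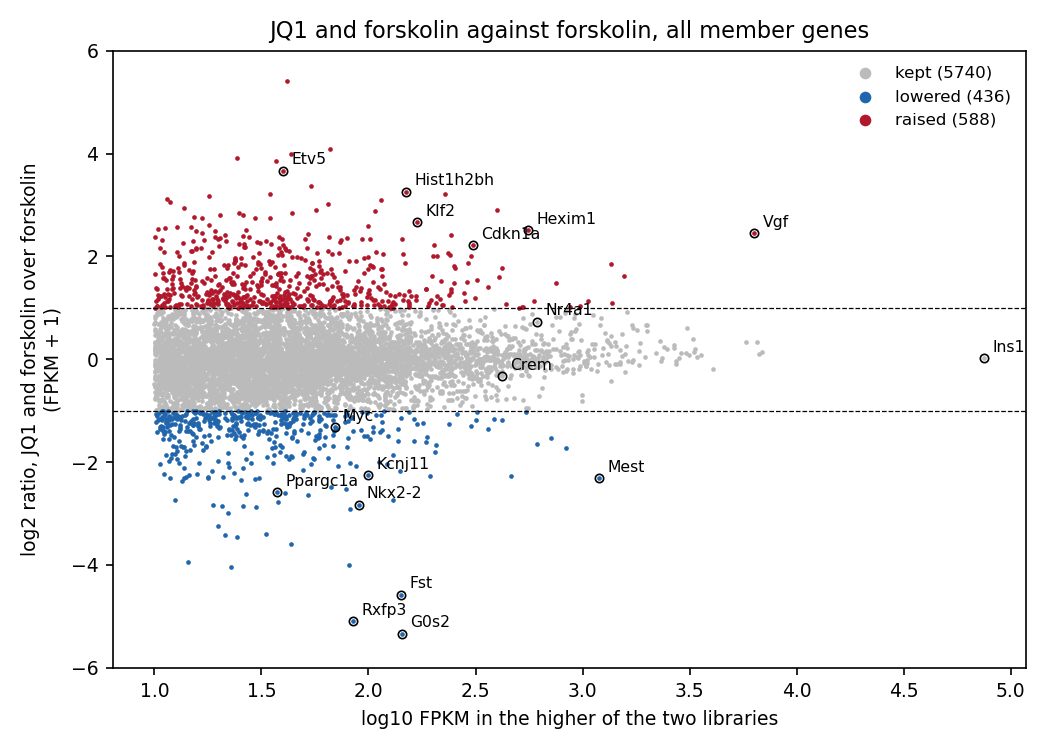
Each point is 1 of the member genes, with the log10 FPKM of the higher of the JQ1 and forskolin libraries on the x axis and the log2 ratio of JQ1 with forskolin over forskolin (FPKM + 1) on the y axis. Blue points are the 436 lowered, grey the 5740 kept and red the 588 raised genes, dashed lines mark the 2-fold limits, circled genes are named in the text, and Mir25, Rpl37, Mir212 and Mir3566 lie beyond the y axis.

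Set against the control library, most lowered genes lay below control and most raised genes above it. Of all members, 539 (7.97%) were at least 2-fold lower with JQ1 than in control and 853 (12.6%) at least 2-fold higher. The values summed to 0.749 M FPKM in the JQ1 library and 0.593 M FPKM in control, and these counts are given without rescaling. How far that difference in sum moves them was not tested. Of the 436 lowered genes, 267 were also at least 2-fold below control, 148 were within 2-fold of it and 21 were still at least 2-fold above it. Of the 588 raised genes, 423 were at least 2-fold above control, 164 within 2-fold and 1 below. The JQ1 library stands in both ratios, so these counts place the classes and do not support them. The raised genes spanned a median of 25.4 kb of the rn6 genome, against 15.5 kb for the lowered and 19.4 kb for the kept genes. Median transcript lengths were 2392 bases for raised, 2039 for lowered and 2015 for kept genes.

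**Figure D2:**
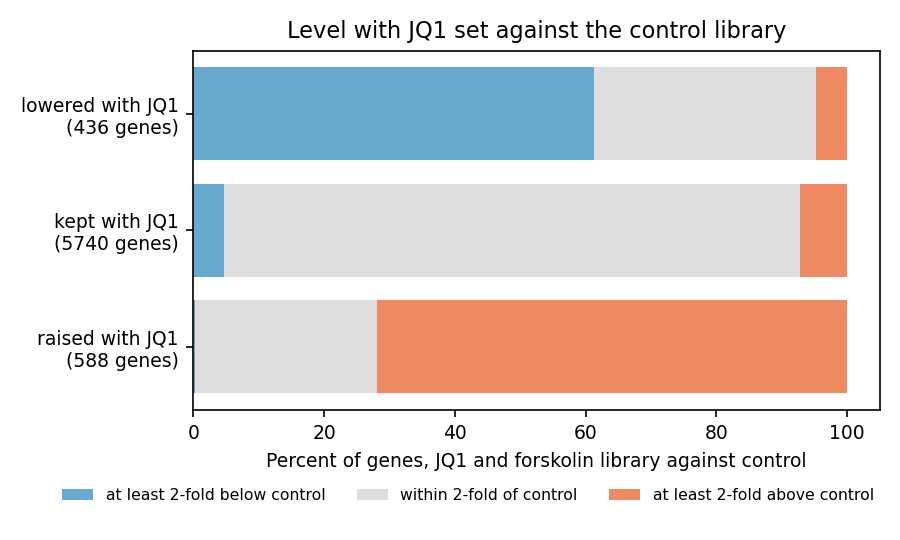
Bars show, for the genes lowered, kept and raised with JQ1, the percent whose level in the JQ1 library was at least 2-fold below, within 2-fold of or at least 2-fold above the control library. Most lowered genes (61.2%) lie below control and most raised genes (71.9%) above it, while 88.2% of the kept genes lie within 2-fold of it.

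The transcripts known to mark BET inhibition in other cells were high in the JQ1 library. Of the list of such markers 6 were members, 2 of them only through the JQ1 library. Of the 6, 5 (83.3%) were raised and none was lowered, against 8.69% raised and 6.45% lowered of all members. The list's median log2 ratio was 2.22, against -0.02 for all members. Hexim1, at chr10:91200874-91202986 on the plus strand of rn6, had 555 FPKM with JQ1, 96.5 FPKM with forskolin and 32.3 FPKM in control. That is 5.76-fold above the forskolin library (95% interval 5.34 to 6.21), and the A-485 library had 318 FPKM. Txnip, which encodes an alpha-arrestin that binds thioredoxin and follows glucose, had 57.5 FPKM with JQ1, 12.9 FPKM with forskolin and 160.1 FPKM in control. Its level with JQ1 was thus above forskolin and below control. The BET and P-TEFb genes themselves were mostly kept, with 14 of 15 members in that class and Hexim1 the exception. Brd3, which encodes a BET protein, had 64.2 FPKM with JQ1, 50.1 FPKM with forskolin and 50.1 FPKM in control. Brd2 was at 1.05 FPKM with JQ1, 0.0683 FPKM with forskolin and 0 in control, under the minimum for members. Larp7, which binds the 7SK RNA of the inactive P-TEFb complex, had 31.6 FPKM with JQ1, 54.2 FPKM with forskolin and 50.1 FPKM in control. Of 29 RNA polymerase II and Mediator genes 27 were kept, Med6 was lowered and Polr2l was raised, and that list's median was 0.09. Med6 was a member only through the forskolin library, and Polr2l only through the JQ1 library.

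Of 9 members among the histone genes 6 (66.7%) were raised and none was lowered, against 8.69% raised and 6.45% lowered of all members. The list's median log2 ratio was 1.49. Hist1h2bk and Hist3h2a met the minimum with JQ1 only, so they could not have been lowered, and of the other 7 members 4 were raised. These genes and H1f0 are also on the list of markers raised by BET inhibitors, so the lists are not separate. Hist1h2bh, a replication-dependent H2B gene, had 149.8 FPKM with JQ1, 14.8 FPKM with forskolin and 20.47 FPKM in control, a ratio of 10.2 to forskolin (7.70 to 13.6). H3f3b, which encodes the replacement histone H3.3, had 1354 FPKM with JQ1, 375 FPKM with forskolin and 237 FPKM in control. Hist3h2a had 19.2 FPKM with JQ1, against 2.89 FPKM with forskolin and 2.67 FPKM in control. All of these were highest in the JQ1 library, with 48.6 FPKM of Hist1h2bh, 571 of H3f3b and 5.14 of Hist3h2a in the A-485 library. Histone genes are a multigene family, so the authors' counting could have split reads between near-identical copies.

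The 15 largest decreases were in genes of several kinds. G0s2, an inhibitor of adipose triglyceride lipase at chr13:112004140-112005052 on the minus strand of rn6, had 2.58 FPKM with JQ1, 144 FPKM with forskolin and 76.5 FPKM in control. Rxfp3, the receptor of the neuropeptide relaxin-3, had 1.53 FPKM with JQ1, 84.8 FPKM with forskolin and 0.733 FPKM in control, 55.5-fold below forskolin (27.9 to 129). Fst, whose product follistatin binds and blocks activins, had 5.01 FPKM with JQ1 and 142 FPKM with forskolin and was listed at 0 in control, 28.4-fold below forskolin (20.9 to 39.7). For Rxfp3 and Fst only the forskolin library was high, while G0s2 was high in control as well. Trpc4, a cation channel, had 0.446 FPKM with JQ1, 22.8 FPKM with forskolin and 7.33 FPKM in control. The homeobox gene Barhl1 had 4.13 FPKM with JQ1, 80.9 FPKM with forskolin and 24.8 FPKM in control. The chemokine-binding receptor gene Cxcr7 had 2.73 FPKM with JQ1, 43.7 FPKM with forskolin and 2.48 FPKM in control. Lif, which encodes the cytokine leukaemia inhibitory factor, was listed at 0 with JQ1, with 14.4 FPKM with forskolin and 0.527 FPKM in control. Also among the 15 lowest were Arhgap24, Filip1, Phf15 and Smad9, and the cyclin gene Ccnd1. Rps27a, a ribosomal protein gene with possible near-identical copies, had 1.90 FPKM with JQ1, 22.1 FPKM with forskolin and 26.8 FPKM in control. Mir25, a feature of 83 bases, was listed at 0 in every library but forskolin, where it had 1829.9 FPKM.

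The 15 largest increases were likewise in genes of several kinds. Etv5, an ETS factor of the ERK pathway, had 39.8 FPKM with JQ1, 2.21 FPKM with forskolin and 4.83 FPKM in control, 17.98-fold above forskolin (12.7 to 26.2). Cited4, which encodes a CBP/p300-binding coactivator, had 37.0 FPKM with JQ1, 1.62 FPKM with forskolin and 4.48 FPKM in control. Orai1, the pore of the store-operated calcium channel, was more abundant, with 229 FPKM with JQ1, 23.8 FPKM with forskolin and 31.2 FPKM in control. Each of these genes was highest in the JQ1 library, and the A-485 library held 25.4 FPKM of Etv5, 12.6 of Cited4 and 131 of Orai1. Unc5b, a netrin receptor gene, had 54.2 FPKM with JQ1, 4.32 FPKM with forskolin and 2.42 FPKM in control. Fgf18 had 43.6 FPKM with JQ1 against 1.82 FPKM with forskolin and 7.21 FPKM in control, and Fzd9, a Wnt receptor gene, had 17.99, 1.10 and 0.323 FPKM. Mylip, which encodes an E3 ligase of the LDL receptor, had 34.9, 2.85 and 3.27 FPKM in the JQ1, forskolin and control libraries. Itpka, an inositol trisphosphate kinase gene, had 11.4 FPKM with JQ1 against 0.430 FPKM with forskolin and 0.562 FPKM in control. The other 5 of the 15 highest, Rps20, Polr2l, Rpl37, Mir212 and Mir3566, are short, and the last 4 were listed at 0 with forskolin and in control. Because Polr2l and Rpl37 are used by every cell, a 0 there may be a failed estimate.

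The design also allows forskolin-induced transcripts to be followed under JQ1. In the separate INS-1 experiment 109 of 10344 genes (1.05%) were induced by forskolin by limma, at an adjusted p under 0.05 and a log2 change of at least 1, with 2 libraries a group. Of these, 105 were members, and 27 (25.7%) of the 105 were lowered with JQ1, 72 were kept and 6 were raised, or 28 lowered and 3 raised when the columns were rescaled to the same sum. Their median log2 ratio was -0.36, against -0.02 over all members, of which 6.45% were lowered. Some of the lowered induced genes, such as Rxfp3, Fst, Kdr and Ccnd1, were members only through the forskolin library, so they could not have been raised. How many of the 27 this holds for was not counted. When replicate 2 alone chose the genes, 21 of 78 (26.9%) were lowered and 3 were raised, with a median of -0.34. When mouse islets chose them, 17 of 149 (11.4%) were lowered and 24 (16.1%) were raised, with a median of 0.10. The share lowered was above that of all members in each of these sets. The share raised was 5.71% with both replicates and 3.85% with replicate 2, below the 8.69% of all members, and 16.1% with mouse islets, above it and above the share lowered. The median lay below 0 only where INS-1 cells chose the genes. Of 38 genes induced in all 3 sets, 7 were lowered, 28 kept and 3 raised. The level with JQ1 stayed at least 2-fold above control for 96 of the 105 genes, 72 of the 78 and 102 of the 149.

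**Figure D3:**
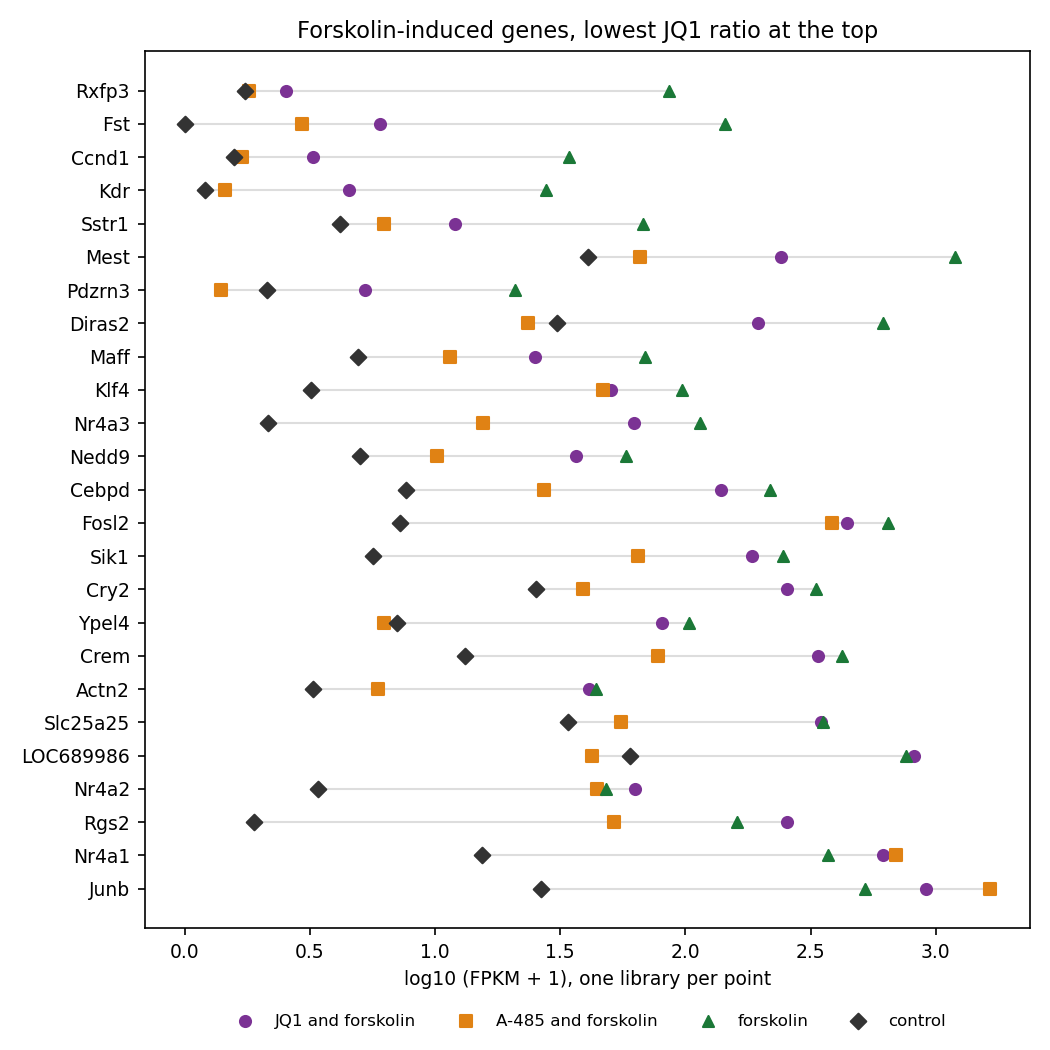
The 25 member genes with the largest forskolin change in the separate INS-1 experiment, ordered by the JQ1 ratio, with log10 (FPKM + 1) in the JQ1 (circles), A-485 (squares), forskolin (triangles) and control (diamonds) libraries on the x axis. In the upper 9 genes, Rxfp3 to Maff, the JQ1 circle lies at least 2-fold left of the forskolin triangle. In the other 16 it lies within 2-fold of it, with Klf4 and Nr4a3 left of it and near that limit.

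The 25 induced genes with the largest forskolin change, which spanned limma log2 changes of 1.90 to 3.40 with adjusted p of at most 0.0087, were split by JQ1 into 9 lowered and 16 kept. Of the 9 lowered, Rxfp3, Fst, Ccnd1, Kdr and Pdzrn3 were members only through the forskolin library, so they could not have been raised. Among the lowered, Mest, an imprinted gene of the hydrolase family, had 239.8 FPKM with JQ1, 1191 FPKM with forskolin and 40.0 FPKM in control, 4.97-fold below forskolin (4.67 to 5.28). Kdr, the receptor of vascular endothelial growth factor, had 3.51 FPKM with JQ1, 26.7 FPKM with forskolin and 0.202 FPKM in control. Sstr1, a somatostatin receptor gene, had 11.04 FPKM with JQ1, 66.6 FPKM with forskolin and 3.15 FPKM in control. Each of these kept a level above control. Ccnd1, which encodes cyclin D1, had 2.25 FPKM with JQ1, 33.3 FPKM with forskolin and 0.571 FPKM in control, and the small GTPase gene Diras2 had 194, 614 and 29.8 FPKM. Pdzrn3 and the small MAF factor gene Maff completed the lowered genes, with Maff at 24.1 FPKM with JQ1, 68.2 FPKM with forskolin and 3.91 FPKM in control. Ppargc1a, a CREB target whose product PGC-1alpha coactivates genes of mitochondria, was induced but not among the 25, and had 5.42 FPKM with JQ1, 37.6 FPKM with forskolin and 1.53 FPKM in control.

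Of 26 members among the textbook CREB targets 19 (73.1%) were kept, against 84.9% of all members, and 5 (19.2%) were lowered, against 6.45%. The other 2 (7.69%) were raised, against 8.69% of all members, and the list's median was -0.28. Among the 5 lowered, 2 were members only through the forskolin library. Crem, whose internal promoter gives the repressor ICER, had 336 FPKM with JQ1, 421 FPKM with forskolin and 12.1 FPKM in control. Sik1, the kinase that feeds back on CRTC coactivators, had 183 FPKM with JQ1, 244 FPKM with forskolin and 4.67 FPKM in control. Irs2, the insulin receptor substrate of beta cells, had 289 FPKM with JQ1, 278 FPKM with forskolin and 48.7 FPKM in control. Per1, a clock gene with cAMP response elements, had 95.4, 111 and 13.7 FPKM in the JQ1, forskolin and control libraries. These 4 genes lay near their forskolin level and far above control. The orphan nuclear receptors differed in size but stayed in the kept class. Nr4a1 had 616 FPKM with JQ1, 371 FPKM with forskolin and 14.4 FPKM in control, Nr4a2 had 61.7, 47.3 and 2.41 FPKM, and Nr4a3 had 61.4, 114 and 1.15 FPKM. Slc25a25, a mitochondrial ATP carrier gene, had 348 FPKM with JQ1 and 352 FPKM with forskolin, against 33.0 FPKM in control. Rgs2, a regulator of G-protein signalling, had 254 FPKM with JQ1, 159 FPKM with forskolin and 0.898 FPKM in control. Of the 6 raised genes, Egr1, an immediate-early factor, had 218 FPKM with JQ1, 74.9 FPKM with forskolin and 3.91 FPKM in control. The 24 members among their pathway partners, cyclases, kinases and phosphodiesterases, had 2 lowered (8.33%, against 6.45% of all members) and none raised. The median was -0.41, and 1 of the 2 lowered was a member only through the forskolin library. Pde4d, a cAMP phosphodiesterase, was 1 of those 2, with 10.3 FPKM with JQ1, 38.7 FPKM with forskolin and 8.89 FPKM in control. Of 9 CREB family, CRTC and acetyltransferase genes, 1 (11.1%) was lowered and none was raised. That gene was Atf1, at 32.1 FPKM with JQ1, 69.4 FPKM with forskolin and 60.5 FPKM in control. Pck1, a liver CREB target, was listed at 0 in all of these libraries.

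Vgf was the most abundant of the strongly raised transcripts and is itself a known cAMP target. Its product is a neuropeptide precursor of secretory granules. It had 6349 FPKM with JQ1, 1154 FPKM with forskolin and 376 FPKM in control, 5.50-fold above forskolin (5.39 to 5.61), and 1523 FPKM with A-485. The JQ1 library was far above the others.

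The full cAMP response element was found in promoters of some lowered, some kept and some raised genes. The sequences below are examples and do not show how often each class holds it. They are the 250 bases before the start of Ppargc1a (chr14:63634058-63634307, plus strand) and Maff (chr7:112792537-112792786, plus strand), both lowered with JQ1, of Crem (chr17:58984547-58984796, plus strand) and Dusp1 (chr10:17184603-17184852, plus strand), both kept, and of Vgf (chr12:25277021-25277270, minus strand), which was raised. All are RefSeq promoters of the GRCr8 assembly, printed 5′ to 3′ on the gene's strand, and were picked after their values were seen because each holds the full element. Capitals mark TGACGTCA and TGACG on either strand.
Ppargc1a: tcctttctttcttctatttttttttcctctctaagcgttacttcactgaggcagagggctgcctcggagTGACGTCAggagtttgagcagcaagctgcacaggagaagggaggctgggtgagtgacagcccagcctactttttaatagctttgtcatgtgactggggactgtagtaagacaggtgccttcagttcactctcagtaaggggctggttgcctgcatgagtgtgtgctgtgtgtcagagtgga
Maff: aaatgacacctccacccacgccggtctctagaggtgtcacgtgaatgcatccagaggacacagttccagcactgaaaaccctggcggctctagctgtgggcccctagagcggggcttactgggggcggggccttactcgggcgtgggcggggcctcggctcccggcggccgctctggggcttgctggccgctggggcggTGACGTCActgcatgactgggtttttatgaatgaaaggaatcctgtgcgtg
Crem: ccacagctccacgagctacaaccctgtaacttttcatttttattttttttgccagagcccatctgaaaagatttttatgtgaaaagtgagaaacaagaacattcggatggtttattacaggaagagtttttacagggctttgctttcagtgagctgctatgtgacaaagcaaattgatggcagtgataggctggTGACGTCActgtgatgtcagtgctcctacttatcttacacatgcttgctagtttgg
Dusp1: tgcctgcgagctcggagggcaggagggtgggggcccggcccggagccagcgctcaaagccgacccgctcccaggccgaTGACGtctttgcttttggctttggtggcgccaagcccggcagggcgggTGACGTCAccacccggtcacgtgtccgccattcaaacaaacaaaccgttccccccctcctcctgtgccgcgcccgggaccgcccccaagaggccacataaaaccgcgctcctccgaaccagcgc
Vgf: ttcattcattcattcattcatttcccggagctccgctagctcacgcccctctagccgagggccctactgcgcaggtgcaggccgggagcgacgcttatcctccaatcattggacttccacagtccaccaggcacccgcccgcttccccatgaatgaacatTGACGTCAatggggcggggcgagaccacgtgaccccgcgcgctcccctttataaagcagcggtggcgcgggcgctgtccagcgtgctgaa
The full element begins 181 bases before the start in Ppargc1a, 51 in Maff, 56 in Crem, 124 in Dusp1 and 90 in Vgf. Crem has 3 promoters in the RefSeq table and the 1 with the element is shown. Dusp1, a phosphatase of MAP kinases, had 262.5 FPKM with JQ1, 157 FPKM with forskolin and 21.7 FPKM in control, and holds a further TGACG.

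Over whole promoters, from 250 bases before to 50 after the start and on both strands, 5567 members had a RefSeq sequence. TGACGTCA was found in 10 of 83 promoters (12%) of forskolin-induced genes, against 3.86% of members and 2% of all 27457 genes with a promoter. It stood in 3 of 21 promoters (14.3%) of the induced genes that JQ1 lowered and in 7 of 62 (11.3%) of those it kept or raised. The core TGACG, which the full element contains, stood in 38.1% of the lowered and 58.1% of the kept or raised induced promoters, against 37.2% of members and 23% of all genes. Over all members, TGACGTCA was in 6.25% of lowered, 3.81% of kept and 2.71% of raised promoters. The E-box CACGTG was in 16.4% of lowered, 10.6% of kept and 7.5% of raised promoters and in 7.08% of all. The TATA letters TATAAA were in 6.85%, 5.7% and 9.58% of the lowered, kept and raised promoters and in 15.3% of all. TGANTCA, a site of AP-1 factors, was in 3.27%, 4.69% and 5% of them and in 8.04% of all. Matches of different motifs may share bases. A match of letters is a description and not a binding site.

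Of 128 genes (1.24%) lowered by forskolin in the separate INS-1 experiment, 39 were members. That number of lowered genes was unstable, with 36 on leaving out forskolin 1, 61 on leaving out control 2, 65 on leaving out control 1, 32 without a variance trend and 691 with the replicate number as a block. With JQ1, 28 of the 39 were kept, 6 (15.4%) were lowered further and 5 (12.8%) were raised, against 6.45% and 8.69% of all members. Their median was -0.01. The level with JQ1 was still at least 2-fold below control for 23 of the 39. Txnip was among the raised, as given above, and was the only member when replicate 2 alone chose the genes. Bcl2l1, which encodes the anti-apoptotic protein BCL-XL, was lowered further, to 10.6 FPKM with JQ1, against 36.7 FPKM with forskolin and 77.2 FPKM in control. Arrdc4, an arrestin-domain gene that follows glucose as Txnip does, had 5.92 FPKM with JQ1, 14.9 FPKM with forskolin and 62.2 FPKM in control. These neighbours in function thus took opposite directions. Of 8 members in the arrestin list 1 (12.5%) was lowered and 2 (25%) were raised. The second raised gene was Arrdc2, with 10.4 FPKM with JQ1, 0.987 FPKM with forskolin and 2.15 FPKM in control. Arrdc4 was a member only through the forskolin library, and Arrdc2 only through the JQ1 library.

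The insulin and amyloid peptide transcripts were kept, while some genes of the glucose-sensing and transcription factor lists were lowered. Ins1 had 75145 FPKM with JQ1, 74241 FPKM with forskolin and 56539.8 FPKM in control, and Ins2 and Iapp, the amyloid peptide gene, were kept too. Of 16 glucose-sensing and channel genes 5 were lowered and none was raised, with a median of -0.80 against -0.02 for all members. The share lowered was 31.2%, against 6.45% of all members. Among the 5 lowered, 1 was a member only through the forskolin library. Kcnj11, the pore subunit of the ATP-sensitive potassium channel, had 20.05 FPKM with JQ1, 99.6 FPKM with forskolin and 125 FPKM in control, 4.97-fold below forskolin (4.32 to 5.74). The fatty acid receptor gene Ffar1 had 15.7, 39.2 and 112 FPKM, and Gem, a GTPase that restrains calcium channels, had 53.1 FPKM with JQ1, 138 FPKM with forskolin and 12.1 FPKM in control. Kcnj11 and Ffar1 thus lay below both the forskolin and control libraries with JQ1, and Gem lay between forskolin and control. Slc2a2, the glucose transporter GLUT2, stayed within 2-fold, with 281 FPKM with JQ1, 545 FPKM with forskolin and 417 FPKM in control. As these are bulk samples, fewer cells of a kind and less RNA per cell cannot be told apart.

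Of 16 beta cell transcription factors 3 (18.8%) were lowered, 11 kept and 2 (12.5%) raised, against 6.45% lowered and 8.69% raised of all members. The list's median was 0.32. Among the lowered, 2 were members only through the forskolin library, and 1 of the raised only through the JQ1 library. Nkx2-2, needed for beta cell identity, had 11.8 FPKM with JQ1, 90.0 FPKM with forskolin and 51.2 FPKM in control, 7.61-fold below forskolin (5.85 to 10.1). Myt1, a zinc-finger factor, had 4.46 FPKM with JQ1, 22.3 FPKM with forskolin and 24.4 FPKM in control. In both of these the JQ1 library lay below both the forskolin and the control library. Pdx1, the master factor of the lineage, had 569.9 FPKM with JQ1, 356 FPKM with forskolin and 207 FPKM in control. Neurod1 had 83.1 FPKM with JQ1, 44.5 FPKM with forskolin and 137 FPKM in control, and Nkx6-1 had 30.9, 19.97 and 51.0 FPKM. Gcg, the glucagon gene, had 594 FPKM with JQ1, 272 FPKM with forskolin and 75.4 FPKM in control. The other islet hormone genes Sst, Ppy and Ghrl were at 0 in all of these libraries. Whether cells of another kind had a part in the Gcg level was not tested.

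**Figure D4:**
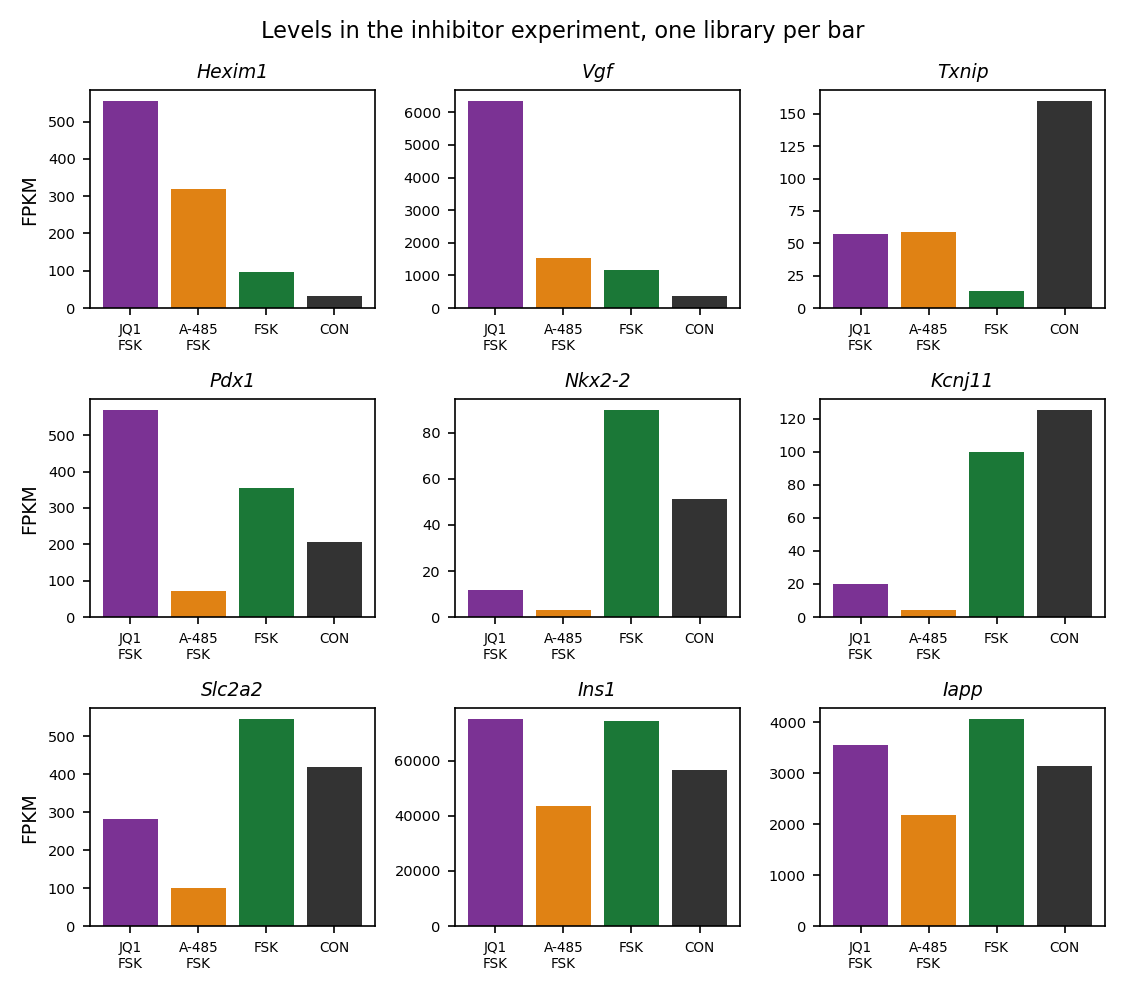
Bars give FPKM, from 0 and on a linear axis, of 9 genes in the JQ1, A-485, forskolin and control libraries, 1 library per bar. Hexim1 and Vgf are highest with JQ1, Nkx2-2 and Kcnj11 are low with both inhibitors, Pdx1 is low with A-485 only, and Ins1 is lowest with A-485, at 43572 FPKM.

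Of 11 hormone and processing genes 2 (18.2%) were lowered, 8 kept and 1 (9.09%) raised, against 6.45% lowered and 8.69% raised of all members. The lowered were Gast, the gastrin gene, at 5.20 FPKM with JQ1, 26.0 FPKM with forskolin and 5.02 FPKM in control, and Cck, the cholecystokinin gene, at 142, 363 and 39.5 FPKM. Both were highest in the forskolin library, and Gast was a member only through it. Of 25 granule and exocytosis genes 21 were kept, 2 (8%) lowered and 2 (8%) raised. These shares lay near the 6.45% and 8.69% of all members, and the median was -0.04. Syt7, a calcium sensor of granule fusion, had 245 FPKM with JQ1, 714 FPKM with forskolin and 332 FPKM in control, while Stx1a, the syntaxin of the fusion machinery, had 106, 50.2 and 49.3 FPKM.

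In the ribosome biogenesis and cell cycle lists 36% and 21.2% of members were lowered, against 6.45% of all members, and 4% and 3.03% were raised, against 8.69%. Myc had 27.2 FPKM with JQ1, 69.4 FPKM with forskolin and 68.9 FPKM in control, 2.55-fold below forskolin (2.20 to 2.97). Of 25 ribosome biogenesis genes known as MYC targets 9 were lowered and 1 was raised, with a median of -0.46. Among the 9 lowered, 2 were members only through the forskolin library. Gar1, a subunit of the RNA-pseudouridylating particle, had 16.5 FPKM with JQ1, 65.0 FPKM with forskolin and 61.0 FPKM in control. Ppan, a nucleolar factor, had 27.3 FPKM with JQ1, 80.5 FPKM with forskolin and 68.6 FPKM in control, and Polr1b, a subunit of RNA polymerase I, had 4.36, 13.1 and 12.8 FPKM. In each the JQ1 library was low, and the forskolin and control libraries lay close together. Of 33 cell cycle genes 7 were lowered and 1 raised, with a median of -0.34. Among the 7 lowered, 2 were members only through the forskolin library. Cdc20, an activator of the anaphase-promoting complex, had 29.2 FPKM with JQ1, 123 FPKM with forskolin and 207 FPKM in control. The mitotic kinase gene Plk1 had 33.1 FPKM with JQ1, 95.1 FPKM with forskolin and 153 FPKM in control. Cdkn1a, which encodes the cell cycle inhibitor p21, was the raised gene, with 309, 65.2 and 17.6 FPKM in the JQ1, forskolin and control libraries. Among 6 members of the list known to fall with BET inhibitors, Myc and Ccnd1 were lowered, and Runx1, Fosl1 and Ccnd2 were kept. Id2 was raised, at 17.5 FPKM with JQ1, 6.65 FPKM with forskolin and 5.34 FPKM in control. The shares of this list were 33.3% lowered and 16.7% raised, against 6.45% and 8.69% of all members. Ccnd1 was a member only through the forskolin library, and Id2 only through the JQ1 library. Runx1 had 70.8 FPKM with JQ1, 102 FPKM with forskolin and 15.2 FPKM in control.

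In the immediate-early, ERK feedback, heat shock and stress lists 26.9%, 27.3%, 33.3% and 17.4% of members were raised, against 8.69% of all members, and no test was possible. Of 26 immediate-early genes 7 were raised and 2 lowered, with a median of 0.66. Among the 2 lowered, 1 was a member only through the forskolin library. Klf2, a zinc-finger factor, had 169 FPKM with JQ1, 25.7 FPKM with forskolin and 24.0 FPKM in control, and Srf, the serum response factor, had 87.3, 22.6 and 19.01 FPKM. Ier5 had 143 FPKM with JQ1, 27.4 FPKM with forskolin and 17.5 FPKM in control. For these the forskolin library was near control. Junb had 914 FPKM with JQ1, 520.4 FPKM with forskolin and 25.6 FPKM in control, and Fos had 83.7, 62.5 and 0.977 FPKM. Of 11 ERK feedback genes 3 were raised, 1 of them a member only through the JQ1 library, and 1 was lowered (median 0.34). Of 12 heat shock genes 4 were raised and none was lowered (median 0.20), with Dnajb1, a co-chaperone of HSP70, at 287 FPKM with JQ1, 101 FPKM with forskolin and 57.1 FPKM in control. Of 23 genes of the integrated stress and unfolded protein responses 4 were raised and none was lowered (median 0.28). Ern1, the sensor kinase IRE1, had 53.9 FPKM with JQ1, 16.8 FPKM with forskolin and 12.5 FPKM in control, and Ddit3, the factor CHOP, had 195, 86.9 and 29.5 FPKM.

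The lists below stand against shares of 6.45% lowered and 8.69% raised over all members. Of 8 inflammatory and NF-kB genes 3 (37.5%) were raised, 2 of them members only through the JQ1 library, and none was lowered. The median was 0.25, or -0.42 when the columns were rescaled to the same sum. Nfkbiz, at 10.2 FPKM with JQ1 and 3.26 FPKM with forskolin, then fell under the minimum, so these medians cover different genes. Among the raised was the inhibitor gene Nfkbie, at 59.1 FPKM with JQ1, 17.5 FPKM with forskolin and 9.01 FPKM in control. Of 18 cholesterol synthesis genes 3 were raised and none was lowered (median 0.26), with Sqle, the squalene epoxidase, at 99.8 FPKM with JQ1, 40.4 FPKM with forskolin and 48.7 FPKM in control. Of 10 fatty acid synthesis genes 2 were raised and 1 was lowered (median 0.31), the lowered being Scd, at 172 FPKM with JQ1, 384 FPKM with forskolin and 430 FPKM in control. Scd was the only lowered gene of both lipid lists, at 10% of the fatty acid list. The shares raised were 16.7% of the cholesterol list and 20% of the fatty acid list. The 8 activin, TGF-beta and ID genes held 3 lowered (37.5%), Fst and Tgfb2 among them, and 2 raised (25%), with a median of -0.65. All 3 lowered genes were members only through the forskolin library, and 1 of the 2 raised only through the JQ1 library. Bambi, a decoy receptor, was raised, at 73.4 FPKM with JQ1, 14.3 FPKM with forskolin and 17.9 FPKM in control. The 11 circadian genes held 2 lowered (18.2%), Per2 and Clock, and 1 raised (9.09%), Cry1 (median -0.12). Per2 and Clock were members only through the forskolin library, and Cry1 only through the JQ1 library. The 11 apoptosis regulators held 1 lowered (9.09%), Bcl2l1, and 2 raised (18.2%), with a median of 0.14. Among the raised, Bcl2l11, the BIM gene, had 98.2 FPKM with JQ1, 46.8 FPKM with forskolin and 8.59 FPKM in control. Both members of the aryl hydrocarbon receptor list, Arnt and Nqo1, were kept, with a median of -0.42.

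Abundant genes of basic metabolism were kept. All 27 oxidative phosphorylation genes were kept (median 0.02), as were 13 of 13 housekeeping genes (median 0.11) and 28 of 29 ribosomal protein genes on the list (median 0.07), where the exception was the short Rps20, which was raised. The ribosomal protein genes Rps27a, lowered, and Rpl37, raised, are not on that list. Actb and Gapdh nevertheless lay above their forskolin level, with Actb at 3060.1 FPKM with JQ1, 1996 FPKM with forskolin and 1971 FPKM in control, and Gapdh at 345, 218 and 191 FPKM. These differences stayed below 2-fold.

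**Figure D5:**
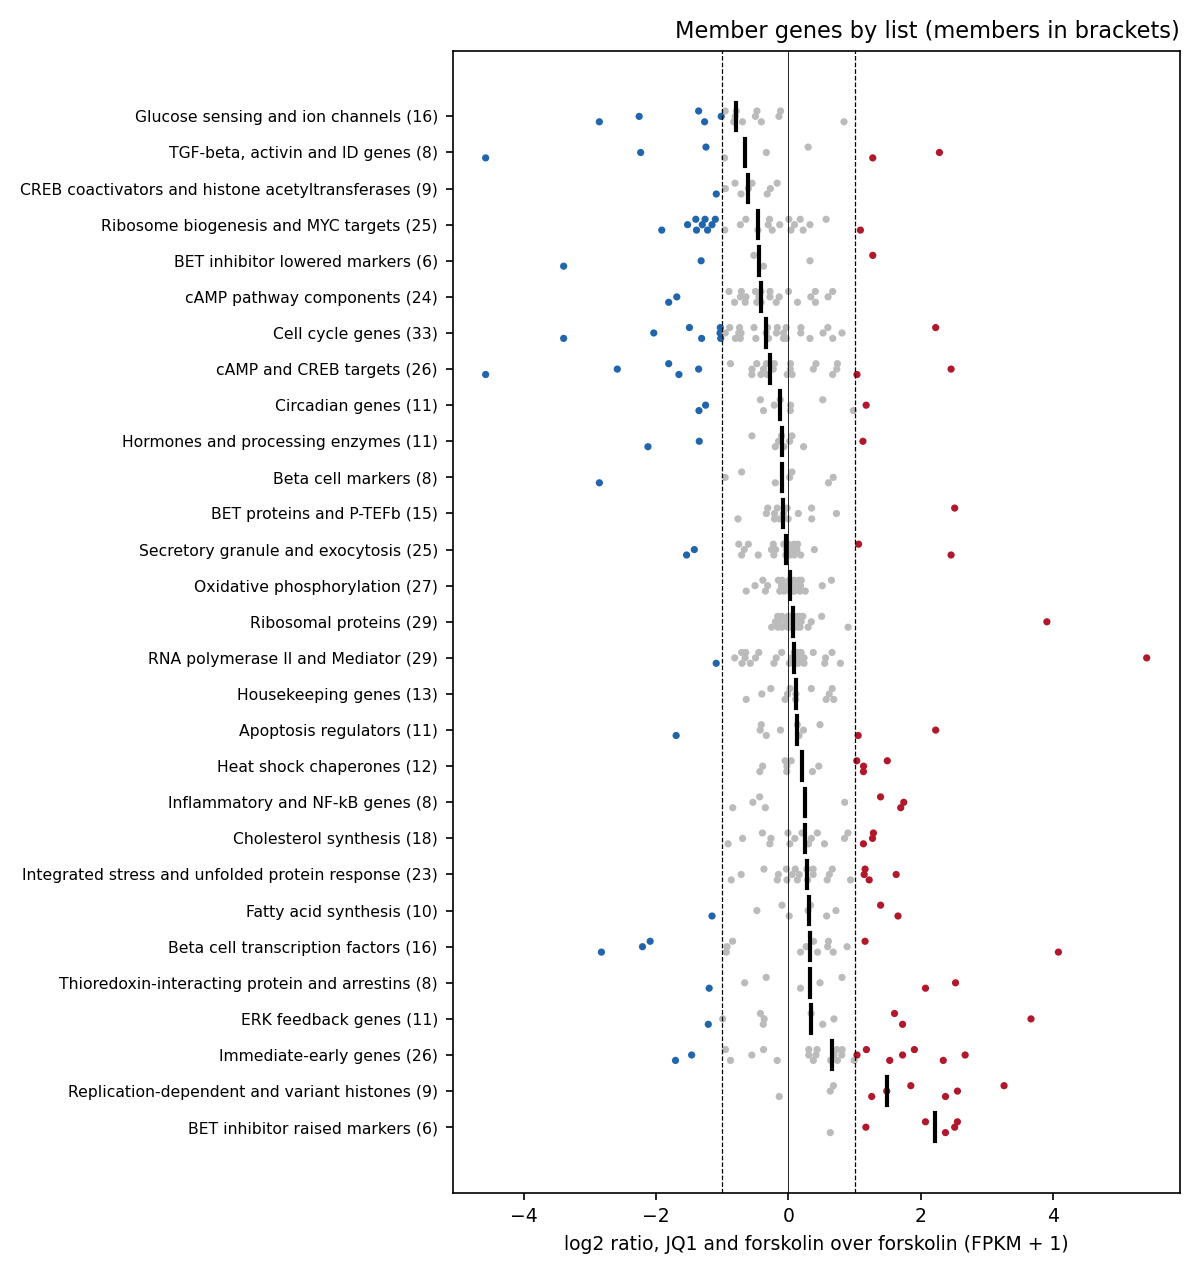
Each point is a member gene, placed by its log2 ratio of JQ1 with forskolin over forskolin (FPKM + 1) and coloured blue when lowered, grey when kept and red when raised, for the lists with at least 5 members, ordered by their median (black bar). Glucose sensing and channel genes have the lowest median (-0.80) and the markers known to be raised by BET inhibitors the highest (2.22), while oxidative phosphorylation genes cluster at 0.

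The JQ1 library was also set directly against the A-485 library. That ratio uses neither the forskolin nor the control library, but the members were chosen on the JQ1 and forskolin libraries, which leaves out genes high with A-485 alone. The agents differ in target and dose. Of the 6764 members, 218 (3.22%) were at least 2-fold lower with JQ1 than with A-485 and 607 (8.97%) at least 2-fold higher, with a median log2 ratio of 0.13. The values summed to 0.7485 M FPKM in the JQ1 library and 0.5795 M FPKM in the A-485 library. All counts against A-485 are given without rescaling, and how far that difference in sum moves them was not tested. When the minimum was taken on the higher of the JQ1 and A-485 libraries, a choice made after seeing the data, 301 of 6769 genes (4.45%) were lower and 574 (8.48%) higher. Forskolin-induced genes were higher with JQ1. Of 105 such genes 78 (74.3%) were at least 2-fold above A-485 and none was 2-fold below, with a median of 1.504. With replicate 2 alone choosing the genes the count was 56 of 78 (71.8%), and with mouse islets 67 of 149 (45%), again with none 2-fold below. Crem had 336 FPKM with JQ1 and 76.5 FPKM with A-485, and LOC689986 had 817 and 41.3 FPKM. Some induced genes were low with both inhibitors, such as Fst with 5.01 FPKM with JQ1 and 1.95 FPKM with A-485, and Rxfp3 with 1.53 and 0.804 FPKM. Nr4a1 and Junb were high with both, Junb at 914 FPKM with JQ1 and 1638 FPKM with A-485.

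Beta cell transcription factors showed the same side, with 11 of 16 (68.8%) at least 2-fold above A-485, against 8.97% of all members, and none 2-fold below. The list's median was 2.23. Pdx1 had 569.9 FPKM with JQ1 and 72.9 FPKM with A-485, Neurod1 had 83.1 and 4.63 FPKM, and Nkx6-1 had 30.9 and 4.68 FPKM. Nkx2-2 was low with both, at 11.8 FPKM with JQ1 and 2.90 FPKM with A-485. Cell cycle genes stood on the other side, with 9 of 33 (27.3%) at least 2-fold below A-485 and 2 (6.06%) above. Of all members 3.22% were below and 8.97% above. The median of the cell cycle list was -0.58. Cdc20 had 29.2 FPKM with JQ1 and 161 FPKM with A-485, while Myc had 27.2 and 3.83 FPKM. Of the 25 ribosome biogenesis genes 1 was 2-fold above A-485 and 1 below (median 0.05), and of the 27 oxidative phosphorylation genes none was either (median 0.12). None of the 13 housekeeping genes was either, but their median was 0.39. Of the 29 ribosomal protein genes 1 was 2-fold above A-485 and none below, with a median of 0.26.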

How the data were processed

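RNA sequencing libraries were made from Trizol-extracted RNA of INS-1 cells with a directional kit, per the labels' protocols. The table of the inhibitor experiment names no unit. Its deposited values behave as FPKM, since products of low values and transcript length gather at 1 value in each library, and between 58.2% and 64.7% of low values came out whole within 0.1 read, so the depths are estimates and no count test was run. The submitters' processing notes name TopHat2 2.0.9, STAR, HOMER and DESeq2 and the builds rn6 and mm10. The aligner behind this table was not given in the sources used here. Replicated INS-1 and mouse islet tables hold regularised log2 values, made by the authors with HOMER on RefSeq exons, per the file headers. They also hold the authors' deposited log2 fold changes, p-values and adjusted p-values, which were used in 1 alternative only. Of the table's gene names 25 had been turned into dates, 17 of them members, and they match no list.

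Ratios were taken after adding 1 FPKM (the pseudocount), so changes of low genes are understated, and were computed with Python 3.11.15, pandas 2.3.3 and numpy 2.4.6. Intervals are 95% exact binomial intervals of the estimated reads, computed with scipy 1.17.1. Forskolin-responsive genes came from limma 3.58.1 in R 4.3.3 on the log2 values, with a variance trend, a group mean of at least 1 and Benjamini-Hochberg adjustment at 0.05. The replicates are not described as separate cultures, so these p-values measure only the spread between libraries, which may be technical. The comparison had been planned for counts or log2 values as the files allowed. The 34 gene lists and the members were chosen with earlier results of these data known. Named genes were the 15 lowest and 15 highest ratios, the 25 induced genes with the largest forskolin change, up to 4 members of a list with the largest ratio and a fixed set of known targets; others are said to be chosen later. Some genes named by this rule are left out and not reported here. The limma and ratio steps were tested on simulated data. Alternatives changed the pseudocount, minimum, scaling, threshold and limma settings.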

Additional observations from a re-analysis of the deposited data

How the results depend on the processing

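The 436 lowered and 588 raised genes depend on limits and low values. With a pseudocount of 5, 249 genes were lowered. Without a minimum 757 were lowered, and with a minimum of 20 FPKM 278. A 1.5-fold threshold gave 1131 lowered and 1168 raised genes and a 4-fold threshold 63 and 110. The share of raised among changed genes was 57.4%, and 48.6% when the columns were rescaled to the same sum, with 528 lowered and 500 raised. Of 105 induced genes, 11 were lowered and 0 raised at 4-fold, 39 were lowered and 17 raised at 1.5-fold, and 28 were lowered and 3 raised when the columns were rescaled to the same sum. The authors' deposited table called 270 genes induced, with 52 of its members lowered and 22 raised with JQ1. With replicate 2 alone, chosen after seeing the data, 3 induced genes were raised and the 1 forskolin-lowered member had a log2 ratio of 2.07. With mouse islets, also chosen afterwards, 17 were lowered, 24 raised and the median was 0.10. The median of induced genes was between -0.43 and -0.30 under every other alternative run. Requiring transcripts of at least 300 bases above 0 in all 3 libraries left every count within 1.5 times. The cause of these shifts was not tested beyond the alternatives' own limits.

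Without a variance trend limma called 32 genes lowered by forskolin. Leaving out 1 library at a time gave 100 to 137 induced and 36 to 147 lowered genes, where the group left with 1 library takes its spread from the other group. Leaving out control 1, control 2 or forskolin 1 gave 65, 61 and 36 lowered genes. The JQ1 median of the induced genes was then -0.41 to -0.36, with 25 to 36 lowered and 5 to 9 raised, and that of the forskolin-lowered genes -0.044 to 0.25. With the replicate number as a block, limma called 110 induced and 691 lowered genes, and the JQ1 medians of these sets were -0.36 and 0.12. Same-numbered libraries deviated together with a correlation of 0.44 over 10344 genes, but the labels do not pair them. Under the replicate block the counts of induced genes lowered and raised with JQ1 stayed within 1.5 times.

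Of 660 ratios of named genes under other pseudocounts and scalings, 126 moved by more than a spread of 0.1484 log2. That spread came from the control libraries of the separate INS-1 experiment on regularised values, a different scale from the FPKM ratios. For 23 of 229 list medians the shift was as large. Depth limits genes near 10 FPKM, and 1 library a group gives no replicate check.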

Other observations

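Further forskolin-induced genes that were lowered with JQ1, picked here after their values were seen, encode proteins of signalling and metabolism. Cd83, an immunoglobulin-family surface protein, had 7.55 FPKM with JQ1, 52.2 FPKM with forskolin and 5.45 FPKM in control, so that the JQ1 library lay near control. Ldhb, the B subunit of lactate dehydrogenase, had 122 FPKM with JQ1, 301 FPKM with forskolin and 63.1 FPKM in control. The kinase genes Pak3, Camk4 and Lrrk2 and the sulfate transporter gene Slc26a2 were lowered as well, with Pak3 at 19.9 FPKM with JQ1, 87.3 FPKM with forskolin and 16.5 FPKM in control.

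Of the 6 induced genes that were raised with JQ1, Tob1, which encodes an antiproliferative protein, had 407 FPKM with JQ1, 133 FPKM with forskolin and 33.8 FPKM in control. Gadd45b, a stress-response gene, had 215 FPKM with JQ1, 94.3 FPKM with forskolin and 9.61 FPKM in control. Among genes lowered by forskolin, the somatostatin receptor gene Sstr3 had 2.86 FPKM with JQ1, 17.8 FPKM with forskolin and 42.7 FPKM in control. Sox4, a SOX-family factor, took the other direction, with 208.5 FPKM with JQ1, 50.8 FPKM with forskolin and 80.0 FPKM in control. None of these ratios has a replicate.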
